A study of Homo sapiens with 6 samples.

Results

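The 36 genes described here were chosen by symbol, 23 of glucose uptake, glycolysis and its regulation and 13 of the hypoxia response, out of 60669 genes in the count files. These genes and the further lists below were chosen with earlier results of these data known. Their shares beside those of all genes are therefore descriptions and no test of the group. All 36 were found and 34 passed the count filter that left 17575 genes to test. The exceptions were CA9, a surface carbonic anhydrase, with 0 and 2 counts in the PRMT1 knockdown libraries, 0 and 0 in the MLL2 knockout libraries and 1 and 0 in the control libraries, and SLC16A3, a lactate exporter, with 1 and 1, 0 and 3, and 3 and 3 counts in the same order. Both are classical HIF targets, and at 3 counts or fewer in a library no difference in them was detectable at this depth.

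Glycolysis breaks glucose down to pyruvate in the cytosol: hexokinases and phosphofructokinases commit the sugar, the triose enzymes from aldolase to pyruvate kinase recover its energy, and lactate dehydrogenase recycles the cofactor. Oxygen supply sets much of its gene expression through the hypoxia-inducible factors (HIFs), whose alpha subunits are marked for destruction by prolyl hydroxylases when oxygen is present, and which raise genes of glucose uptake, glycolysis, angiogenesis and mitophagy when it is scarce. HIF alpha is controlled mainly at the protein level, which was not measured here.

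All libraries are from 293T, a human line that descends from embryonic kidney and carries viral transforming genes. There were 3 groups of 2 libraries: cells with PRMT1 knocked down by a short hairpin RNA, cells with MLL2 knocked out by CRISPR/Cas9, and wild-type control cells with no treatment. PRMT1 is an arginine methyltransferase and MLL2 a histone methyltransferase, a name used for both KMT2B and KMT2D. The labels call the libraries of a group biological replicates. They do not say whether they were separate cultures, whether the knockout was 1 clone, or whether control and knockout cells carried a hairpin. The count files' headers name the alignments WTshPR for the knockdown, MKshNT for the knockout and WTshNT for control, so a hairpin in all 3 groups is possible, but no source used here explains these names. A p-value here reflects only how far these libraries vary. Traits of a clone cannot be told apart from the knockout. The libraries held 20061471 to 22351532 counts in genes. PRMT1 stood at 38.2 and 34.9 CPM (counts per 1000000 of the TMM-scaled library) in the knockdown libraries, 406 and 425 CPM in the knockout libraries, and 306 and 319 CPM in the control libraries. It was lower in the knockdown (-3.10, adjusted p = 5.5e-16) and higher in the knockout (0.41, adjusted p = 8.9e-04) than in control. KMT2B and KMT2D messages passed no test in the knockout (0.02 ± 0.25 and 0.19 ± 0.26 as log2 change ± SE), which does not check that label because an edited gene can still be transcribed. In the knockdown they rose by 1.49 and 1.76 (edgeR adjusted p = 3.1e-05 and 8.4e-06), but its libraries lay far apart, with KMT2D at 37.8 and 95.5 CPM, against 22.5 and 17.03 CPM in control. Without PRMT1 knockdown replicate 2 the changes were 0.91 and 0.94. KMT2B and KMT2D both have exon lengths over 8000 nt, a class of genes with a median log2 change of 0.16 in the knockdown. Of markers of the line, VIM and NEFL were read in every library (at least 53.3 CPM), PAX2 only at 0.0491 to 0.541 CPM and LHX1 at 0.0484 to 1.81 CPM. The blood markers PTPRC, CD3E and HBB, the endothelial markers PECAM1 and CDH5 and the liver markers ALB and APOA1 did not pass the count filter, with 0 to 16 counts in a library. In bulk RNA, fewer expressing cells and less RNA per cell cannot be told apart.

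Messages of most steps of the pathway were lower in the PRMT1 knockdown than in control. Of the 34 genes tested, 25 fell and 3 rose (edgeR adjusted p under 0.05), or 82.4% called, against 47.4% of all genes tested, of which 25.3% were lower and 22.2% higher. Their change had a median of -0.64 on the log2 scale, against -0.04 over all genes tested. In the MLL2 knockout against control 12 fell and 1 rose, or 38.2% called, against 22.4% of all genes, of which 12.1% were lower and 10.3% higher. The median there was -0.15, against -0.01 over all genes. All 12 genes that fell in the knockout also fell in the knockdown and the 1 that rose, HIF1A, rose in both. These comparisons share their control libraries, and the like overlap over all genes was not counted, so it cannot be called particular to these genes. Set directly against the knockout, the knockdown was lower for 21 genes and higher for 5, or 76.5% called, against 40.7% of all genes, of which 21.4% were lower and 19.4% higher. The median of that difference was -0.46, against 0.01 over all genes. The 23 glycolysis genes together took 0.779% and 0.725% of all counts in the knockdown libraries, 1.18% and 1.16% in the knockout libraries, and 1.21% and 1.19% in the control libraries. The knockdown libraries stood clear of all others, and the knockout libraries lay just under the control libraries.

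**Figure D1:**
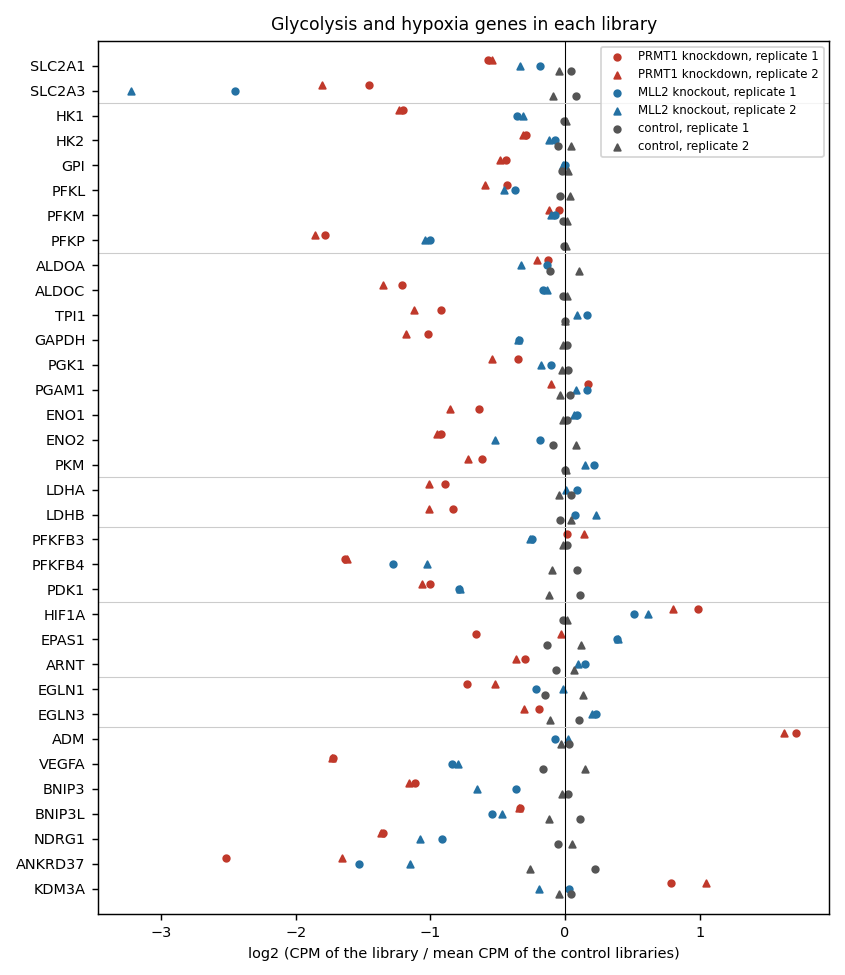
CPM of each of the 34 tested genes in each library, as the log2 ratio to the mean of the control libraries (x axis); circles are replicate 1 and triangles replicate 2, and lines part the roles from transporters (top) to hypoxia genes (bottom). Most knockdown points lie left of 0, from GAPDH and LDHA to VEGFA, while ADM, KDM3A and HIF1A lie right of it.

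HIF binds the core letters ACGTG or GCGTG, and the promoters of 6 genes are shown so that these letters can be seen beside the changes below. The sequences are from RefSeq (GRCh38.p14), 250 bases before to 50 after the start farthest upstream of those listed, and matches on either strand (ACGTG or GCGTG, and on the other strand CACGT or CACGC) are in capitals. CACGTG holds a match on both strands and is also the E-box that MYC binds. PFKP, HK1, GAPDH and ADM were taken for their small adjusted p among the genes with an entry, and LDHA and BNIP3 after the matches were seen.
PFKP, chr10:3067720-3068019, plus strand: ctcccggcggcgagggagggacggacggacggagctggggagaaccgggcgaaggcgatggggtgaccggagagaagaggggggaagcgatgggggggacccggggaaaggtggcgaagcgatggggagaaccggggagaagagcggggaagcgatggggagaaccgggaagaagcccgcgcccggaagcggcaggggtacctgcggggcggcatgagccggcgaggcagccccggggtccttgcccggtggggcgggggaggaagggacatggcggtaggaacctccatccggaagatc
HK1, chr10:69269750-69270049, plus strand: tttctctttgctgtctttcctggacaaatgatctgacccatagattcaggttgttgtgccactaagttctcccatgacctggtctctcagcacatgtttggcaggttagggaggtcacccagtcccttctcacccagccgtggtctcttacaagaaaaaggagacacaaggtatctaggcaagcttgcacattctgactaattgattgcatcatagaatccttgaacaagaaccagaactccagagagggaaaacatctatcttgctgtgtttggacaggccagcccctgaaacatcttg
GAPDH, chr12:6535014-6535313, plus strand: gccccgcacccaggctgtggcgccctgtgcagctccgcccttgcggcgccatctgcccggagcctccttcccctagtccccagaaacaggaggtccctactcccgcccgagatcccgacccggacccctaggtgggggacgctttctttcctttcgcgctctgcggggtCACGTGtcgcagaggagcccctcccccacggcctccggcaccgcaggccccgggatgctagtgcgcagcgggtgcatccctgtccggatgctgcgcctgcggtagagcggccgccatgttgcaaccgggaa
ADM, chr11:10304823-10305122, plus strand: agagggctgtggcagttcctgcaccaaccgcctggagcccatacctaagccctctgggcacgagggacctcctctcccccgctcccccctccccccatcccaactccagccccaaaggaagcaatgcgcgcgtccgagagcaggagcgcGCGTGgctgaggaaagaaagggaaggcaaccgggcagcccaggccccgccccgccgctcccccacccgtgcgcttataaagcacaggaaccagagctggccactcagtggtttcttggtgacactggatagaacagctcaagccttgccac
LDHA, chr11:18394313-18394612, plus strand: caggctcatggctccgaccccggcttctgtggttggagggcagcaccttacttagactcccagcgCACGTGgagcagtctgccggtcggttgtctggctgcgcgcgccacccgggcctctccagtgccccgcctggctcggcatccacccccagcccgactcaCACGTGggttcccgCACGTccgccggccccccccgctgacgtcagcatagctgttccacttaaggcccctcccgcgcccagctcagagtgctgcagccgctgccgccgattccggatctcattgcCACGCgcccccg
BNIP3, chr10:131981874-131982173, minus strand: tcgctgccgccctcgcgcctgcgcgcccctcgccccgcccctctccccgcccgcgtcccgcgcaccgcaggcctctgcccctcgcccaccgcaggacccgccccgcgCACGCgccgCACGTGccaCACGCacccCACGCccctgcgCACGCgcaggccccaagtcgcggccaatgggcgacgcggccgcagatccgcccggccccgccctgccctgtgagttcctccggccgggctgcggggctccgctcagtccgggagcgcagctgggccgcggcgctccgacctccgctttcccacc

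BNIP3 held 5 such runs in capitals, LDHA 4, GAPDH and ADM 1 each, and PFKP and HK1 none. The table used holds entries for 32 of the 36 genes, all but VEGFA, SLC2A3, NDRG1 and BNIP3L. Of these 32 genes 24 (75.0%) held at least 1 match, against 48.4% of 27305 promoters of the same length, and 5 (15.6%) held CACGTG, against 7.4%. The 27305 promoters were not matched to these genes in expression or GC content, so the gap is no measure of site enrichment. By behaviour in the knockdown, a match was present in 16 of 21 genes that fell, in 3 of 3 that rose and in 4 of 6 that passed no test. CACGTG was found in 5 of the 21 genes that fell (23.8%), in 0 of the 3 that rose and in 0 of the 6 that passed no test. A match is not a bound site, 12 of the 32 genes have several listed starts (HK1 has 7 and PFKP 4), and which start these cells use was not measured.

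Glucose enters through SLC2A1 (GLUT1), the common transporter, and SLC2A3 (GLUT3), a high-affinity one. SLC2A3, whose gene lies on chromosome 12 (7919230 to 7936187, hg38), measured 8.85 and 6.94 CPM in the knockdown, 4.44 and 2.60 CPM in the knockout cells and 25.6 and 22.8 CPM in the control libraries. No library of either depletion reached the control range, and the knockout was the lower of the depletions. Its log2 change was -1.62 ± 0.21 (SE) in the knockdown (adjusted p = 1.6e-06) and -2.78 ± 0.22 in the knockout (adjusted p = 2.8e-08), and the direct difference, knockdown minus knockout, was 1.16 ± 0.23 (adjusted p = 4.1e-04), or 0.82 and 1.59 when replicate 2 or replicate 1 of the knockout was left out. SLC2A1 fell in the knockdown to 40.9 and 41.6 CPM, against 62.5 and 58.9 CPM in control (-0.56 ± 0.10, adjusted p = 1.2e-04). In the knockout it was at 53.4 and 48.2 CPM, a change that missed the threshold (-0.26 ± 0.10, adjusted p = 0.074). It passed with the compared groups alone and without either knockdown library (-0.25 in each, adjusted p = 0.028 to 0.032). Per kilobase of exon (RPKM), SLC2A3 made up 13.6% and 10.8% of the summed level of both transporters in the knockdown, 5.70% and 3.77% in the knockout, and 23.0% and 22.0% in control.

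Of the 6 genes of the hexose phosphate steps, 5 fell in the knockdown (83.3%) and 3 in the knockout (50%). Of all genes tested, 25.3% fell in the knockdown and 12.1% in the knockout. PFKP, the platelet-type phosphofructokinase (chromosome 10, 3066333 to 3137718), had the smallest adjusted p of the group in the knockdown. It stood at 45.8 and 43.4 CPM in the knockdown, 78.6 and 76.4 CPM in the knockout cells and 157 and 158 CPM in control, so that the 3 groups were well apart. It was 3.53-fold lower in the knockdown than in control (-1.82 ± 0.09, adjusted p = 2.7e-12) and 2.03-fold lower in the knockout (-1.02 ± 0.09, adjusted p = 5.1e-08), and lower in the knockdown than in the knockout (-0.80 ± 0.09, adjusted p = 4.3e-07). The other phosphofructokinases moved less. PFKL, the liver type, was at 130 and 116 CPM in the knockdown, 135 and 128 CPM in the knockout cells and 171 and 180.2 CPM in control, and fell in both (-0.51 ± 0.09 and -0.41 ± 0.09, adjusted p = 5.2e-05 and 0.0015). PFKM, the muscle type, had 172 to 180 CPM in the knockdown, 173 to 177 CPM in the knockout cells and 184 to 188 CPM in control, and passed neither test (-0.08 ± 0.08 and -0.09 ± 0.08).

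The shares of the phosphofructokinase messages differed between groups, and protein was not measured. PFKP gave 17.3% and 17.6% of the summed phosphofructokinase RPKM in the knockdown, 26.3% and 26.5% in the knockout cells and 38.8% and 38.1% in control, while PFKM gave 52.1% and 53.2%, 45.4% and 45.9%, and 34.9% and 34.8% in the same order. These shares are ratios within a library, which no scaling between libraries changes, and the groups did not overlap. A trend with exon length, as seen over all genes in the knockdown, can still move them (PFKP 5554 nt, PFKM 7246 nt, PFKL 8926 nt). With offsets for GC content and exon length, the knockdown changes were -1.72 for PFKP, -0.09 for PFKM and -0.42 for PFKL. Hexokinases trap glucose in the cell. HK1, the widely expressed form, was at 76.3 and 74.5 CPM in the knockdown, 137 and 141 CPM in the knockout cells and 175 and 176 CPM in control (-1.22 ± 0.08, adjusted p = 3.3e-10, and -0.34 ± 0.08, adjusted p = 0.0050), and the call in the knockout was lost without any 1 of the control or knockout libraries (adjusted p = 0.058 to 0.113). HK2, the inducible form, fell less in the knockdown (-0.30 ± 0.09, adjusted p = 0.0080), a call lost without control replicate 2 (-0.26, adjusted p = 0.103), and was at -0.09 ± 0.09 in the knockout (adjusted p = 0.49). HK2 made up 50.5% and 50.7% of the summed hexokinase RPKM in the knockdown, against 39.8% and 38.3% in the knockout cells and 34.5% and 35.8% in control, as shares with no test. The knockdown libraries stood above all others. GPI, which turns glucose phosphate into fructose phosphate, fell in the knockdown (-0.46 ± 0.08, adjusted p = 5.3e-05) and was at -0.01 ± 0.08 in the knockout.

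**Figure D2:**
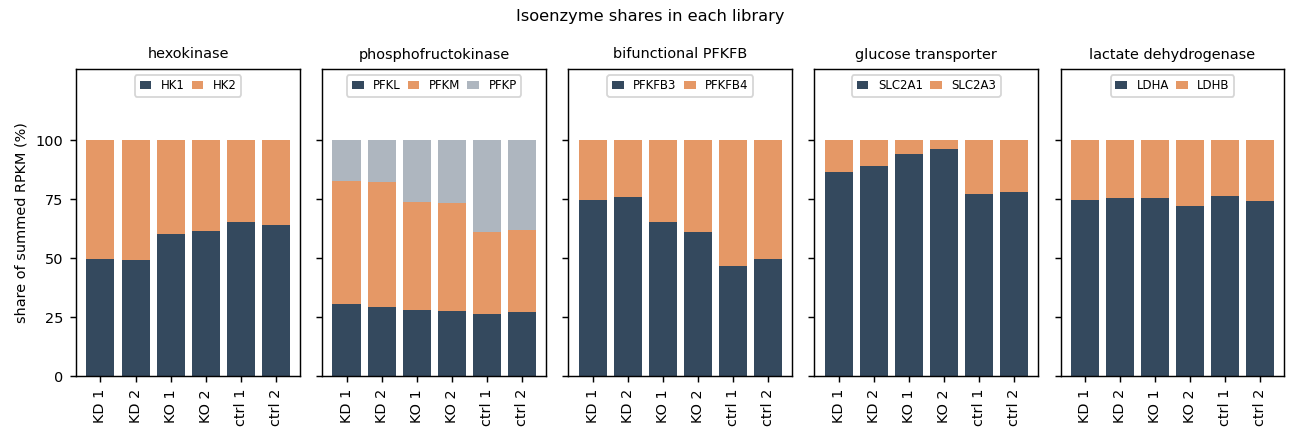
Share of each isoenzyme in the summed RPKM of its enzyme (y axis, percent) in each of the 6 libraries (KD PRMT1 knockdown, KO MLL2 knockout, ctrl control). The PFKP share is 17.3% and 17.6% in the knockdown, against 38.8% and 38.1% in control, while the LDHA share lies between 72.3% and 76.3% in all libraries.

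The steps from aldolase to pyruvate kinase held the most abundant messages of the group. Of their 9 genes 7 fell in the knockdown (77.8%, against 25.3% of all genes). In the knockout 1 of 9 fell (11.1%), near the 12.1% of all genes. In control cells GAPDH, the glyceraldehyde phosphate dehydrogenase often used as a reference gene, had the highest level per length, with a mean of 1014 RPKM, followed by ENO1 (686 RPKM), TPI1 (497 RPKM), LDHA (160.1 RPKM), PGK1 (157 RPKM) and PKM (153 RPKM). LDHA, PGK1 and PKM lay close together. The lengths hold every annotated exon base of a gene, 2396 nt for GAPDH and 5216 nt for ENO1, and this order depends on them. By CPM ENO1 (mean 3578) stood above GAPDH (mean 2430) in control. GAPDH stood at 1201 and 1069 CPM in the knockdown, 1913 and 1905 CPM in the knockout cells and 2460 and 2400 CPM in control. It fell by 1.10 ± 0.08 on the log2 scale in the knockdown (adjusted p = 1.6e-09) and by 0.35 ± 0.08 in the knockout (adjusted p = 0.0046), a call lost without any 1 of the control or knockout libraries (adjusted p = 0.054 to 0.101). TPI1, triose phosphate isomerase, was at 710 and 616 CPM in the knockdown, 1507 and 1431 CPM in the knockout cells and 1343 and 1342 CPM in control, so the knockdown libraries were below and the knockout libraries above control. Only the knockdown passed the test (-1.02 ± 0.09, adjusted p = 6.3e-09; knockout 0.13 ± 0.08, adjusted p = 0.30), and the depletions differed directly (-1.15 ± 0.09, adjusted p = 2.5e-09).

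ENO1, the main enolase, and PKM, pyruvate kinase, showed the same order. ENO1 had 2293 and 1978 CPM in the knockdown, 3814 and 3740 CPM in the knockout cells and 3608 and 3548 CPM in control (knockdown -0.74 ± 0.09, adjusted p = 5.8e-07; knockout 0.08 ± 0.09, adjusted p = 0.57). PKM had 852 and 793 CPM, 1521 and 1451 CPM, and 1306 and 1313 CPM in the same order (-0.67 ± 0.08, adjusted p = 8.1e-07, and 0.18 ± 0.08, adjusted p = 0.11). Against the knockout the knockdown was lower for both, by -0.82 ± 0.09 for ENO1 and -0.85 ± 0.08 for PKM (adjusted p = 2.5e-07 and 5.4e-08). ALDOC, a brain-type aldolase, fell to 13.1 and 11.9 CPM in the knockdown, against 27.0 and 27.6 CPM in the knockout cells and 30.0 and 30.6 CPM in control (-1.28 ± 0.13, adjusted p = 1.2e-07, in the knockdown against control). PGK1 (-0.44 ± 0.08, adjusted p = 1.8e-04) and the neuronal enolase ENO2 (-0.93 ± 0.19, adjusted p = 3.4e-04) also fell in the knockdown.

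The exceptions at these steps were PGAM1 and ALDOA. PGAM1, phosphoglycerate mutase, had 261 and 216 CPM in the knockdown, 260 and 246 CPM in the knockout cells and 239 and 226 CPM in control, with overlapping knockdown and control libraries (0.04 ± 0.09, adjusted p = 0.76). ALDOA, the main aldolase of most tissues, was read at only 22.2 to 29.9 CPM in all 6 libraries. In the annotation of the files 29.7% of its exon bases also belong to ENSG00000285043 on the same strand, and reads there count for neither gene, so its level and its small changes (-0.17 ± 0.13 in the knockdown, -0.23 ± 0.13 in the knockout) are uncertain. The like holds for LDHB, with 33.4% of its exon bases shared, and EGLN1, with 55.8%; for the other genes at most 5.1% was shared.

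The messages of both lactate dehydrogenase subunits fell in the knockdown. LDHA, which favours lactate formation, was at 520.0 and 480.5 CPM in the knockdown, 1026 and 971 CPM in the knockout cells and 995 and 939 CPM in control. LDHB, which favours the reverse, was at 87.9 and 77.6 CPM, 165 and 184 CPM, and 152 and 161 CPM in the same order. The log2 changes were -0.95 ± 0.08 for LDHA and -0.92 ± 0.09 for LDHB in the knockdown (adjusted p = 9.0e-09 and 5.8e-08), and 0.05 ± 0.08 and 0.15 ± 0.09 in the knockout (adjusted p = 0.74 and 0.24). Since both fell by a like amount, the LDHA share of the summed RPKM was 74.5% and 75.4% in the knockdown, 75.5% and 72.3% in the knockout cells and 76.3% and 74.2% in control, and the groups overlapped.

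Of 3 genes that set the flux, 2 fell in both depletions (66.7%). Of all genes, 25.3% fell in the knockdown and 12.1% in the knockout, and the share that fell in both was not counted. PFKFB4 and PFKFB3 make and remove the sugar phosphate that activates phosphofructokinase, and PDK1, pyruvate dehydrogenase kinase, holds pyruvate back from mitochondria. PFKFB4 was at 12.04 and 12.2 CPM in the knockdown, 15.4 and 18.4 CPM in the knockout cells and 39.9 and 35.0 CPM in control, well below control in both (-1.63 ± 0.14, adjusted p = 1.1e-08, and -1.15 ± 0.14, adjusted p = 7.0e-06). PDK1 was at 39.0 and 37.4 CPM, 45.1 and 45.3 CPM, and 84.2 and 71.8 CPM in the same order (-1.03 ± 0.10, adjusted p = 7.7e-08, and -0.79 ± 0.10, adjusted p = 1.7e-05). PFKFB3 passed neither test against control: it stood at 35.2 and 38.3 CPM in the knockdown, 29.4 and 29.04 CPM in the knockout cells and 35.2 and 34.4 CPM in control. PFKFB3 was higher in the knockdown than in the knockout (0.33 ± 0.11, adjusted p = 0.024), a call that was lost without either knockout library or without PRMT1 knockdown replicate 2 (adjusted p = 0.124 to 0.139). Its share of the summed RPKM of both was 74.5% and 75.8% in the knockdown, 65.5% and 61.3% in the knockout cells and 46.8% and 49.5% in control.

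**Figure D3:**
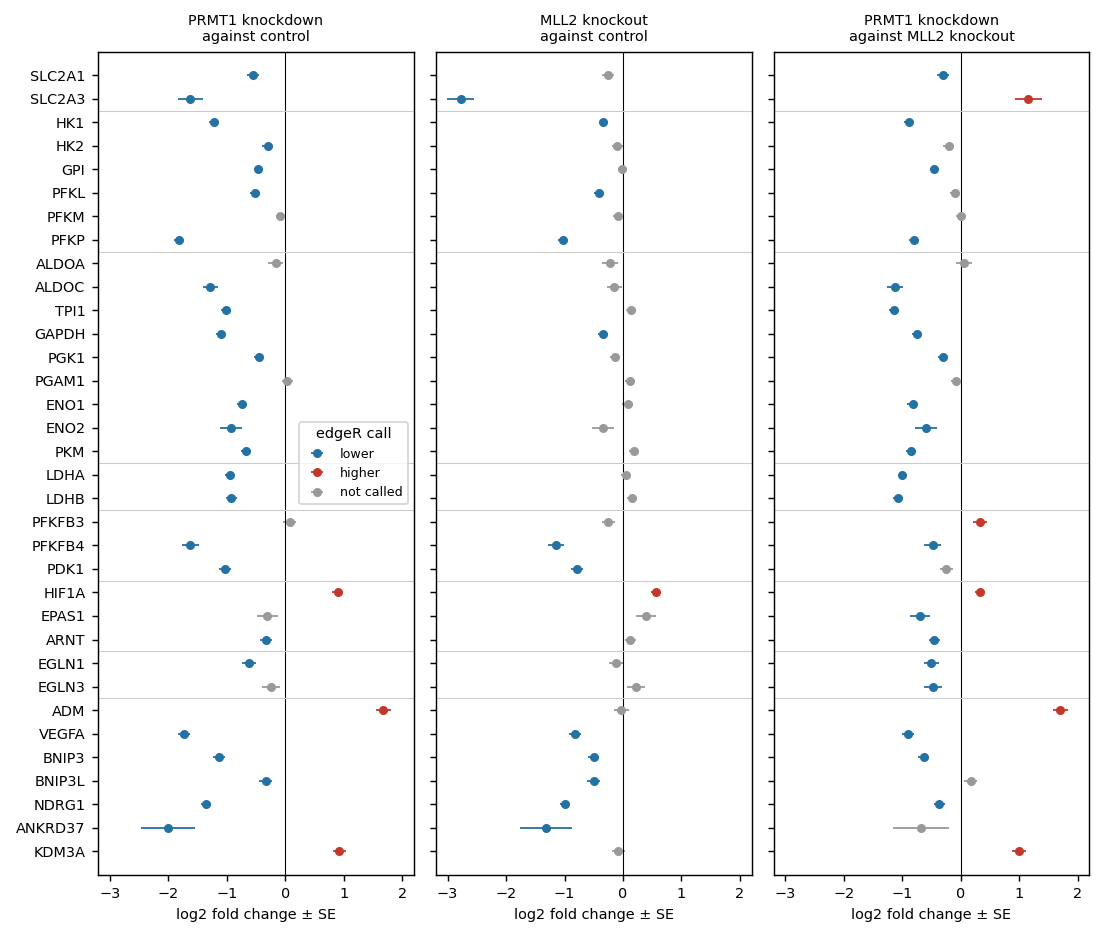
Log2 fold change ± SE from edgeR (x axis) of the 34 tested genes in the 3 comparisons, blue where the gene was called lower, red higher and grey not called. The triose and lactate steps from TPI1 to LDHB are blue in the knockdown apart from PGAM1, while in the knockout GAPDH at -0.35 is the only blue gene among them.

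HIF1A, the oxygen-regulated subunit itself, rose in both depletions. It was at 212 and 187 CPM in the knockdown, 153 and 164 CPM in the knockout cells and 106 and 108.5 CPM in control (chromosome 14, 61695513 to 61748259), and no 2 groups overlapped. The log2 change was 0.89 ± 0.09 in the knockdown (1.86-fold, adjusted p = 4.9e-08) and 0.56 ± 0.09 in the knockout (1.48-fold, adjusted p = 1.0e-04). EPAS1, which codes for the related alpha subunit HIF2A, had 11.4 and 17.6 CPM in the knockdown, 23.5 and 23.6 CPM in the knockout cells and 16.4 and 19.6 CPM in control. Neither change against control passed (-0.31 ± 0.18 and 0.39 ± 0.17), but the knockdown was lower than the knockout (-0.70 ± 0.17, adjusted p = 0.0029), by -0.43 and -1.05 when replicate 1 or replicate 2 of the knockdown was left out. Without PRMT1 knockdown replicate 2 EPAS1 was also called lower in the knockdown than in control (-0.66, adjusted p = 0.0022). ARNT, the shared beta subunit, fell slightly in the knockdown (-0.33 ± 0.10, adjusted p = 0.0075), a call lost without control replicate 2 (-0.27, adjusted p = 0.113), and was at 0.12 ± 0.10 in the knockout.

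The prolyl hydroxylases EGLN1 and EGLN3 mark HIF alpha for breakdown, and both are also HIF targets. EGLN1 fell in the knockdown, to 25.8 and 29.9 CPM, against 36.8 and 42.4 CPM in the knockout cells and 38.6 and 46.9 CPM in control (-0.62 ± 0.13, adjusted p = 3.8e-04). EGLN3 was lower in the knockdown than in the knockout (-0.47 ± 0.15, adjusted p = 0.018), while neither depletion passed against control, and this call was lost without either knockout library or without PRMT1 knockdown replicate 2 (adjusted p = 0.063 to 0.086).

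Of 7 further hypoxia genes tested, 5 fell and 2 rose in the knockdown (100% called, against 47.4% of all genes). In the knockout 5 fell (71.4%, against 12.1% of all genes). VEGFA, the angiogenic growth factor with its gene on chromosome 6 (43770184 to 43786487), measured 36.2 and 36.03 CPM in the knockdown, 66.6 and 68.9 CPM in the knockout cells and 107 and 132 CPM in control. It was 3.31-fold lower in the knockdown (-1.73 ± 0.10, adjusted p = 6.9e-11) and 1.76-fold lower in the knockout (-0.82 ± 0.10, adjusted p = 8.15e-06), and the direct difference was -0.91 ± 0.10 (adjusted p = 7.2e-07). BNIP3, a mitophagy receptor, was at 46.8 and 45.3 CPM, 78.7 and 64.5 CPM, and 103 and 99.9 CPM in the same order (-1.14 ± 0.10, adjusted p = 1.3e-08, and -0.50 ± 0.10, adjusted p = 9.8e-04), and its call in the knockout was lost without MLL2 knockout replicate 2 (-0.36, adjusted p = 0.072). Its relative BNIP3L fell to 43.9 and 43.8 CPM in the knockdown, 38.0 and 40.1 CPM in the knockout, against 59.8 and 51.03 CPM in control (-0.34 ± 0.11, adjusted p = 0.013, and -0.50 ± 0.11, adjusted p = 0.0019). Without control replicate 1 neither BNIP3L call held (-0.23, adjusted p = 0.217, and -0.38, adjusted p = 0.076).

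NDRG1, a stress-induced gene on chromosome 8 (133237171 to 133302022), stood at 58.0 and 57.3 CPM in the knockdown, 78.4 and 70.01 CPM in the knockout cells and 142 and 153 CPM in control. The log2 change was -1.36 ± 0.09 in the knockdown (adjusted p = 2.9e-10) and -0.99 ± 0.09 in the knockout (adjusted p = 1.6e-07). The 252 genes from 50 Mb of that chromosome on with an average log2 CPM above 2 had a median of -0.09 in the knockdown and -0.45 in the knockout, where 157 were called lower and 1 higher. The part of that stretch in the value of NDRG1 in the knockout was not tested. ANKRD37, a small ankyrin repeat gene, was read in 13 and 26 counts in the knockdown, 27 and 33 in the knockout cells and 84 and 61 in control, or 0.629 and 1.14, 1.25 and 1.62, and 4.19 and 3.002 CPM. It fell by 2.01 ± 0.46 in the knockdown (adjusted p = 0.0012) and by 1.33 ± 0.44 in the knockout (adjusted p = 0.036), the last call being lost without any 1 of the control or knockout libraries (adjusted p = 0.066 to 0.256) and with DESeq2 on all libraries (-1.31, adjusted p = 0.052).

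ADM and KDM3A went the other way in the knockdown. ADM, the vasodilator peptide adrenomedullin with its gene on chromosome 11 (10305073 to 10307397), measured 48.7 and 45.8 CPM in the knockdown, 14.05 and 15.01 CPM in the knockout cells and 15.1 and 14.5 CPM in control. It rose 3.19-fold in the knockdown (1.67 ± 0.13, adjusted p = 1.6e-09) and was at -0.03 ± 0.13 in the knockout, and the difference between the depletions was 1.70 ± 0.13 (adjusted p = 2.6e-09). KDM3A, a histone demethylase, was at 61.4 and 73.8 CPM in the knockdown, 36.4 and 31.2 CPM in the knockout cells and 36.7 and 34.6 CPM in control (0.92 ± 0.12, adjusted p = 1.3e-06, in the knockdown, and -0.08 ± 0.12 in the knockout). It was 2.001-fold higher in the knockdown than in the knockout (adjusted p = 7.4e-07). ADM and KDM3A are HIF targets in other cells, as are VEGFA and BNIP3, which fell in the same libraries.

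**Figure D4:**
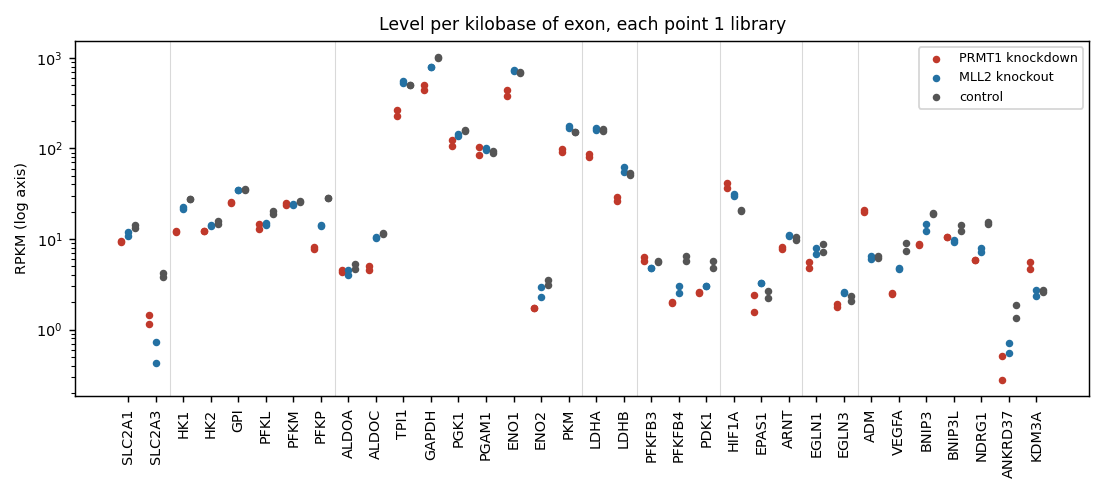
RPKM (y axis, log scale) of the 34 tested genes, each point 1 library, with PRMT1 knockdown, MLL2 knockout and control from left to right for each gene. GAPDH, ENO1 and TPI1 have the highest levels in every group, and ANKRD37 and SLC2A3 are among the lowest in the depleted cells.

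Exon length moved with the change over all genes in the knockdown. Among genes whose log2 CPM averaged above 2, the knockdown had a median log2 change of -0.45 for exon lengths under 1000 nt, -0.22 for 1000 to 3000 nt and 0.16 over 8000 nt, while the knockout cells had medians of -0.05, 0.03 and 0.03. With offsets for GC content and exon length the count in the knockdown was again 25 lower, with 4 higher, and the group had a median of -0.67. GAPDH then stood at -0.80, TPI1 at -0.77 and ALDOC at -1.03, each called and nearer to 0 than before, whereas LDHA stood at -1.02, VEGFA at -1.85 and PDK1 at -1.31, farther from it. ADM, a short transcript that rose, was at 1.98 with the offsets, and the long KDM3A at 0.68. PGAM1 was called higher in the knockdown only with these offsets (0.25, adjusted p = 0.0076; also 0.17, adjusted p = 0.040, without PRMT1 knockdown replicate 2). In the knockout the offsets added calls for TPI1 (0.19, adjusted p = 0.045), PKM (0.25, adjusted p = 0.014), EPAS1 (0.44, adjusted p = 0.035) and PGK1 (-0.18, adjusted p = 0.048). TPI1 (0.13, adjusted p = 0.014), PKM (0.19, adjusted p = 8.2e-04) and EPAS1 (0.39, adjusted p = 0.025) were also called higher there with the compared groups alone, as was PGK1 lower (-0.14, adjusted p = 0.019). The offsets ended the call for PFKL (-0.24, adjusted p = 0.078), which was also lost without MLL2 knockout replicate 2 (-0.37, adjusted p = 0.056).

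**Figure D5:**
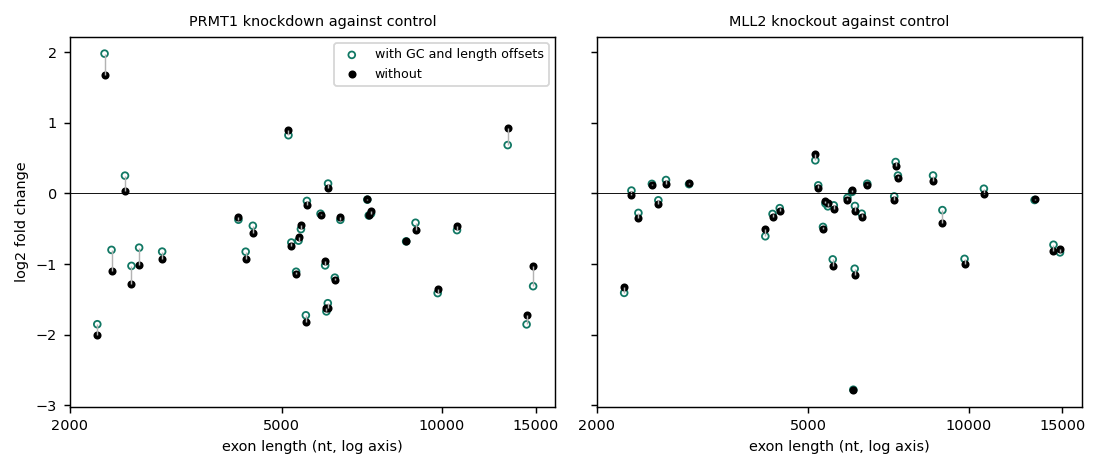
Log2 fold change of the 34 tested genes (y axis) against exon length (x axis, log scale, nt), in the knockdown (left) and the knockout (right); filled points are without and open points with offsets for GC content and length, joined by lines. In the knockdown GAPDH lies at -1.10 without and -0.80 with the offsets, and in the knockout PFKP lies at -1.02 without and -0.93 with them.

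The neighbouring routes of glucose use were read from lists outside the group. Of 8 pentose phosphate genes, the branch that makes NADPH and ribose, 5 fell and 0 rose in the knockdown (62.5% called, against 47.4% of all genes; median -0.59) and 3 fell and 0 rose in the knockout (37.5%, against 22.4% of all genes; median -0.05). PGLS, the lactonase of that branch, had 19.5 and 20.9 CPM in the knockdown, 51.04 and 47.9 CPM in the knockout cells and 68.2 and 72.8 CPM in control (-1.80 ± 0.11, adjusted p = 6.1e-11, and -0.51 ± 0.10, adjusted p = 0.0011). H6PD, a glucose phosphate dehydrogenase of the endoplasmic reticulum, fell by 1.70 ± 0.12 and 0.95 ± 0.12 (adjusted p = 7.9e-10 and 1.1e-05), and TKT, transketolase, by 0.78 and 0.25 (adjusted p = 1.1e-07 and 0.031). The knockout call for TKT was lost without any 1 of the control or knockout libraries (adjusted p = 0.095 to 0.324) and with the GC and length offsets (-0.15, adjusted p = 0.195). Of 17 further glycolysis genes 9 were tested. In the knockdown 5 fell and 3 rose (88.9% called, against 47.4% of all genes, with a median of -1.01). In the knockout 1 fell (11.1%, below the 22.4% of all genes, with a median of -0.06). PGM1, which links glycogen to glycolysis, was that gene, at 53.0 and 54.9 CPM in the knockdown, 115 and 111 CPM in the knockout cells and 144 and 158 CPM in control (-1.49 ± 0.09, adjusted p = 5.4e-11, and -0.42 ± 0.09, adjusted p = 0.0013), its knockout call being lost without control replicate 2 (-0.35, adjusted p = 0.059). PFKFB2, a further form of the PFKFB enzymes, fell by 1.01 in the knockdown (adjusted p = 1.3e-07). The 3 that rose there were ADPGK (0.23), BPGM (0.39) and TIGAR (1.24), named after their values were seen. The call for ADPGK was lost without PRMT1 knockdown replicate 1 or any 1 of the control or knockout libraries (adjusted p = 0.057 to 0.198).

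Of 17 genes of pyruvate and lactate handling, 7 fell and 2 rose in the knockdown (52.9% called, near the 47.4% of all genes, with a median of -0.19). In the knockout 0 fell and 1 rose (5.88%, below the 22.4% of all genes, with a median of 0.09). Of the falls in the knockdown, BSG (-0.21), PDHA1 (-0.22) and PDK3 (-0.26) were not called with relative log expression (adjusted p = 0.068 to 0.080). They were also not called without a count filter or with the compared groups alone, where PDHB was not called either. With the GC and length offsets BSG stood at -0.006. PC, pyruvate carboxylase, rose in the knockdown (0.71, adjusted p = 1.2e-04), where PDK2, another pyruvate dehydrogenase kinase, fell (-1.003, adjusted p = 2.3e-04). SLC16A1, a lactate carrier, was at 628 and 545 CPM in the knockdown, 605 and 598 CPM in the knockout cells, and 515 and 505 CPM in control. It passed the test in the knockout (0.24, adjusted p = 0.045), a call lost without any 1 of the control or knockout libraries (0.22 to 0.26). It had a like value in the knockdown (0.20, adjusted p = 0.053), which passed with DESeq2 (0.24, adjusted p = 0.0069). It also passed in edgeR with relative log expression, the other count filters and the replicate block (adjusted p = 0.016 to 0.035), but not with every alternative. Without PRMT1 knockdown replicate 1 the knockdown was called lower than the knockout (-0.15, adjusted p = 0.030). With all libraries the direct difference, knockdown minus knockout, was -0.04 ± 0.08 (adjusted p = 0.76). The 11 genes of oxygen sensing included 10 tested. In the knockdown 4 were lower and 5 higher (90% called, against 47.4% of all genes, with a median of 0.39). In the knockout 1 was lower and 1 higher (20%, near the 22.4% of all genes, with a median of 0.10). HIF1AN, the asparagine hydroxylase that blunts HIF, rose to 120.4 and 156 CPM in the knockdown, against 60.1 and 59.8 CPM in the knockout cells and 56.2 and 54.2 CPM in control (1.32, adjusted p = 3.3e-09, in the knockdown against control). The coactivators CREBBP (1.87) and EP300 (1.39) rose there too (adjusted p = 1.1e-08 and 2.8e-07). The knockdown libraries lay apart for both, at 47.7 and 71.4 CPM for CREBBP and 67.2 and 107.6 CPM for EP300. The exon lengths of HIF1AN, CREBBP and EP300 are all over 8000 nt, the class with a median of 0.16 in the knockdown. ARNT2, a relative of ARNT, fell in the knockdown (-1.45, adjusted p = 9.2e-07) and the knockout (-0.91, adjusted p = 6.9e-04). Of 34 further HIF targets 32 were tested, with 16 lower and 3 higher in the knockdown (59.4% called, against 47.4% of all genes; median -0.35) and 10 lower and 2 higher in the knockout (37.5%, against 22.4% of all genes; median -0.16). STC2, a secreted glycoprotein, was at 46.5 and 46.9 CPM in the knockdown, 81.1 and 78.4 CPM in the knockout cells and 165 and 176 CPM in control, and BHLHE40, a repressor, fell by 2.12 and 1.09. WSB1, HMOX1 and RORA were the 3 that rose in the knockdown and TFRC and EFNA1 the 2 in the knockout, where EFNA1 rose by 0.997 (adjusted p = 3.7e-04). These 5 genes were named after their values were seen. With the GC and length offsets WSB1 (0.14, adjusted p = 0.146) and RORA (0.15, adjusted p = 0.405) were not called, and neither was called without either control library (adjusted p = 0.068 to 0.113).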

How the data were processed

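The 6 libraries were made from total RNA with the TruSeq Stranded Total RNA Gold kit per the labels. The deposited files hold raw counts of read pairs per gene (60669 genes), made by the authors. Per the submitters' processing notes, the tools were Trim Galore 0.6.10 for trimming, STAR 2.7.5a for alignment on hg38, and featureCounts 1.5.0-p1 for the counts. Per the file headers the counter was featureCounts 2.0.1 with GENCODE 34, a minimum mapping quality of 10 and strand setting 2. Which of these versions made the files was not settled. Read pairs that map to several copies score low in mapping quality and were left out, which can lower genes with many pseudogenes, such as GAPDH.

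Gene symbols were matched for 60370 genes. Genes were kept by edgeR's filterByExpr (17575), given TMM factors, and all 6 libraries entered 1 model in edgeR 4.0.16 (quasi-likelihood test, R 4.3.3, 3 residual degrees of freedom), with Benjamini-Hochberg adjustment over all genes and a threshold of 0.05. RPKM used the exon lengths of the files, which hold every annotated exon base of a gene. Orders and shares between genes depend on these lengths. The fit was tested on simulated data. The members and lists were chosen with earlier results of these data known. The rule for genes named with library values took called members with the smallest adjusted p, members called higher and members under 1 CPM, and up to 4 genes per list and comparison; not all are printed. Alternatives were relative log expression, DESeq2 1.42.0, other count filters, the compared groups alone, the replicate number as a block, spline offsets for GC content (GENCODE 29) and exon length, and leaving out each library. They were applied to the genes of the other lists after their values had been seen. No 2 libraries were identical; replicate counts differed by more than sampling noise in each group (chi-square per degree of freedom 12.8 in the knockdown, 4.45 in the knockout and 5.58 in control). Some marker genes are not reported here.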

Additional observations from a re-analysis of the deposited data

How the results depend on the processing

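Over 14 alternatives, 1359 of 1428 values of single genes kept their direction or stayed uncalled on the same side of the threshold, 34 lost a call, 35 gained one and 0 called changes turned sign. The count of genes lower in the knockdown was 23 to 26 and of those higher 3 or 4 throughout. In the knockout the count lower was 7 without MLL2 knockout replicate 2 and 14 without either knockdown library (7 to 14 over the left-out libraries), and the count higher was 2 with DESeq2 and 4 with the compared groups alone, with the GC and length offsets, with these offsets and the replicate block, and without either knockdown library (1 to 4 over the left-out libraries). Knockdown against knockout, the count higher was 3 to 5 over the left-out libraries, 3 without MLL2 knockout replicate 1, and the count lower 16 to 23. With the replicate block alone the counts were 25 lower and 3 higher in the knockdown, 12 and 1 in the knockout, and 21 and 5 between them. These were the same as without it. Over all genes the block raised the calls in each comparison, in the knockdown from 4439 lower and 3899 higher to 4615 and 4095. Replicate differences correlated at 0.06 between knockout and control, 0.04 between knockdown and control and 0.20 between knockdown and knockout (11509 genes). The labels give no batch, and whether libraries of the same replicate number were handled together is not known. A left-out library leaves 1 sample in its group, which is assumed to vary like the other groups. Relative log expression moved the median of all genes by under 0.1. At 3 counts per library the floor was 0.132 to 0.150 CPM, so CA9 and SLC16A3 could not be compared.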
